A study of Mus musculus with 8 samples.

Results

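The Hox cluster genes were examined in KPC pancreatic tumors grown in WT mice and in mice that lack complement C3. The members are the protein-coding genes whose symbol is Hox followed by a cluster letter (a to d) and a number, and 32 of the 29968 genes measured fit this rule. RNA sequencing was performed on 4 tumors from WT hosts (C57BL/6J) and 4 tumors from C3-/- hosts (complement C3 null), which together make up the whole series. All hosts were 12-week-old male mice that received 250000 KPC FC1245 cells in 50 μL of PBS in the tail of the pancreas, and the endpoint was day 14. The KPC cells are 1 mouse pancreatic cancer line, isolated from a tumor of a genetically engineered mouse whose alleles included LSL-Trp53 R172H/+ and Pdx-1-Cre, in which Pdx-1-Cre acts in cells that express the pancreatic gene Pdx1. The injected cells carried an intact C3 gene in both groups, so only the host differed in genotype.

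Hox genes encode homeodomain transcription factors that lie side by side in clusters, and the order of the genes along a cluster follows the order of their expression along the head-to-tail axis of the embryo. Genes with the same number in different clusters are paralogs. Low numbers are used most anteriorly and high numbers most posteriorly, and adult cells often keep the Hox pattern of the body region they came from. Here paralog groups 1 to 3 are called anterior, 4 to 8 middle and 9 to 13 posterior.

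The mouse annotation (GENCODE vM39) holds 39 genes of the family. Of these, 11 of 11 HoxA genes, 9 of 10 HoxB genes, 8 of 9 HoxC genes and 4 of 9 HoxD genes were in the table. Hoxb1, Hoxc12, Hoxd1, Hoxd3, Hoxd11, Hoxd12 and Hoxd13 were not analysed here. The members comprised 5 anterior, 15 middle and 12 posterior genes. The HoxA members lie on chromosome 6 (minus strand). In mm39 coordinates, the HoxB members ran from 96085142 to 96244838 on chromosome 11 (plus strand, 159.7 kb). The HoxC members ran from 102829538 to 102945278 on chromosome 15 (plus strand, 115.7 kb), and the HoxD members from 74522268 to 74559504 on chromosome 2 (plus strand, 37.2 kb).

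The homeobox is the stretch of 180 bases that encodes the DNA-binding domain and is the part of these genes that is most alike between members. Those of Hoxb6, the member with the highest level, and of Hoxc10, the member that varied most between tumors, are shown to let the ends of the range be compared. Both are coding sequence read from GRCm39, in exon 3 of Hoxb6 (chr11:96191515-96191694, plus strand) and exon 3 of Hoxc10 (chr15:102879283-102879462, plus strand). Capitals mark codons 42 to 58 of the homeobox, which encode the recognition helix that contacts DNA.
Hoxb6 homeobox: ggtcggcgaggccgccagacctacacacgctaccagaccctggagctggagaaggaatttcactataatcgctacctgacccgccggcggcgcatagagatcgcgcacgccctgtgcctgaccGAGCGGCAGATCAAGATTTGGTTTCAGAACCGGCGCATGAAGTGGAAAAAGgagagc
Hoxc10 homeobox: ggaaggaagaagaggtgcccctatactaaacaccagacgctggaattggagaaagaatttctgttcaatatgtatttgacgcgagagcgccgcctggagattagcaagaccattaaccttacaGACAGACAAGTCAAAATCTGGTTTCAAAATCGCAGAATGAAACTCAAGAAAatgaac
These homeoboxes shared 106 of 180 bases (58.9%). Over all pairs of members the homeobox identity ranged from 46.7% to 93.9% with a median of 62.8%, and its median was 82.2% in pairs of the same paralog group. The highest value was that of Hoxa3 and Hoxb3. Outside pairs whose gene models overlap, the longest identical run between the transcripts of any 2 members was 52 bases (Hoxa6 and Hoxb4), and 0 of 489 pairs shared a run as long as the 150-base reads.

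The deposited counts summed to between 13266029 and 23354212 per WT tumor and to between 15453897 and 22293561 per C3-/- tumor. The Hox members took 1112 to 2320 counts per tumor, which was 0.00838% to 0.0118% of all counts, so single members rested on few reads. The deleted gene C3 stood at 40.7 to 82.2 FPKM in WT tumors and 19.3 to 25.6 FPKM in C3-/- tumors (FPKM, fragments per kilobase of gene, scaled for depth, as deposited by the authors), with no overlap. Summed over marker lists, epithelial genes, which mark carcinoma cells, lay between 2402 and 4806 FPKM, fibroblast genes between 522 and 1356, and mesothelial genes between 488 and 1006. Of the mesothelial sum, Krt19 and Msln, the former also in the epithelial list, made up 99.2% to 99.8%, and the other 4 genes lay between 0.0021 and 2.46 FPKM. Endothelial genes lay between 29.7 and 54.0 FPKM, leukocyte genes between 32.5 and 66.6, smooth muscle and pericyte genes between 87.3 and 301, nerve and Schwann genes between 13.2 and 21.3, and hepatocyte genes between 12.6 and 45. Within the smooth muscle list, Des ran from 5.46 FPKM (C3-/- replicate 2) to 169 FPKM (WT replicate 4). Acta2 ran from 55.0 FPKM (C3-/- replicate 3) to 167 FPKM (WT replicate 3). The tumors in which Des was lowest are given with the muscle markers. Pancreatic acinar genes spanned 3.90 to 1584 FPKM and islet genes 0 to 45.4, and skeletal muscle genes, described with the posterior members, spanned 9.73 to 1809.8.

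HoxB supplied most of the Hox RNA, and middle members held most of the Hox FPKM sum in each tumor. The Hox FPKM values of a tumor summed to 35.0 to 48, and HoxB held a median of 65.0% of this sum (range over the 8 tumors 54.0% to 72.4%). HoxA held a median of 18.7% (10.9% to 23.4%), HoxC 15.0% (6.46% to 19.5%) and HoxD 5.15% (2.18% to 8.57%). The mean share of HoxB was 63.3% ± 6.29 (SD, n = 4) in WT tumors and 64.1% ± 7.81 (SD, n = 4) in C3-/- tumors, a difference smaller than either spread. Middle members held 77.5% to 90.4% of the sum, anterior members 3.35% to 7.75% and posterior members 3.05% to 17.2%. In bulk RNA, fewer cells that express a gene and less RNA per cell cannot be told apart, here and in each comparison that follows.

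With expressed taken as a mean of at least 1 FPKM over the 8 tumors, 9 of 32 members were expressed, and all 9 belonged to the middle group. These were Hoxb6 (mean 9.32 ± 1.19 FPKM, SD over 8 tumors), Hoxb7 (5.49 ± 1.33), Hoxb5 (3.85 ± 0.991), Hoxb8 (3.29 ± 0.953), Hoxa5 (3.06 ± 1.10), Hoxb4 (2.74 ± 0.510), Hoxd8 (1.5 ± 0.678), Hoxc6 (1.46 ± 0.595) and Hoxc8 (1.05 ± 0.438). The ranges of Hoxb6 and Hoxb7 met only at their ends, with 7.17 FPKM in the lowest Hoxb6 tumor and 7.58 FPKM in the highest Hoxb7 tumor. The ranges of Hoxb5, Hoxb8, Hoxa5 and Hoxb4 overlapped widely. Just under the threshold lay Hoxc10 (0.996 ± 0.990 FPKM), Hoxc9 (0.907 ± 0.618) and Hoxa4 (0.882 ± 0.414). The posterior genes Hoxc10 and Hoxc9 reached 1 FPKM in 3 and 4 of 8 tumors and had higher means than the middle genes Hoxc4 and Hoxc5. The mean of Hoxc10 reached 1 FPKM when any 1 of 5 tumors was left out (WT replicates 2, 3 and 4 and C3-/- replicates 2 and 3), and that of Hoxc9 without WT replicate 3 or C3-/- replicate 2, so the restriction to middle genes rests on the threshold.

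**Figure D1:**
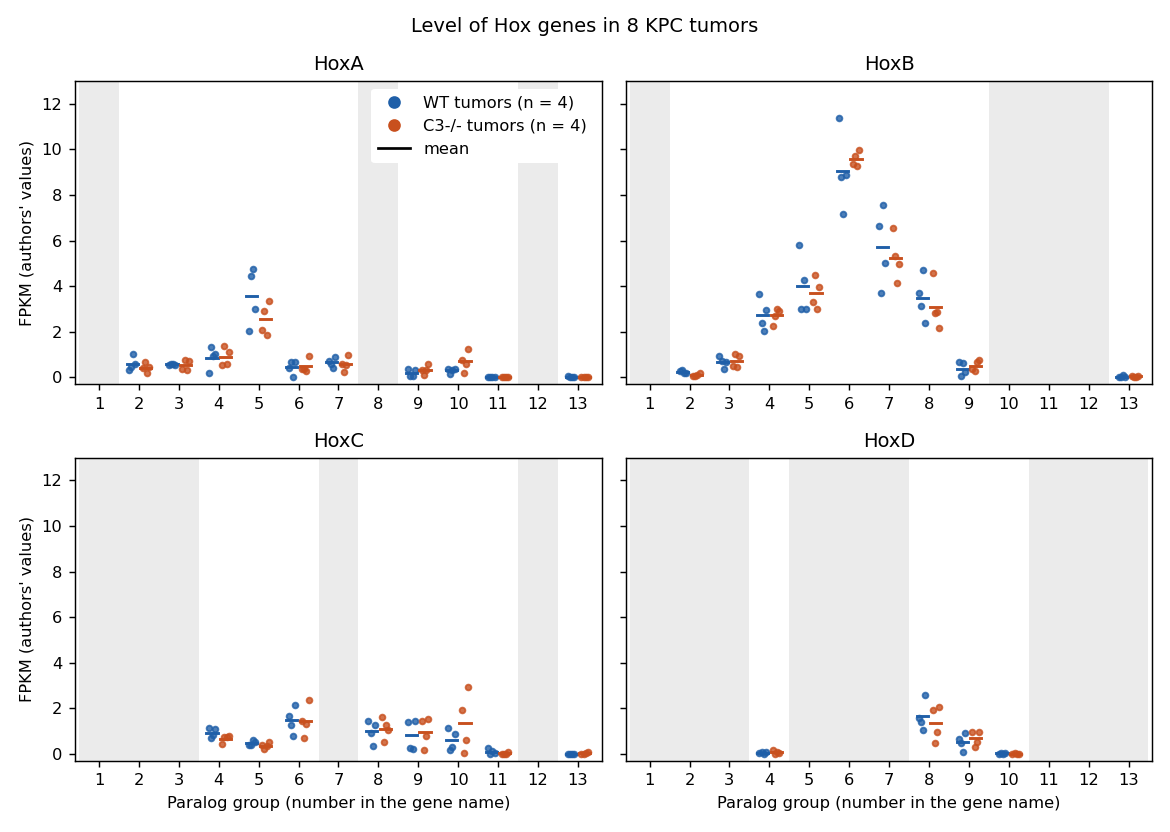
FPKM of Hox members in each tumor (points, 4 WT and 4 C3-/- tumors; bars, mean of each genotype) against its paralog group, with 1 panel per cluster and gray where no gene is shown. The levels peak at paralog group 6 of HoxB, where Hoxb6 lies between 7.17 and 11.4 FPKM, and fall to near 0 at group 13 in HoxA, HoxB and HoxC.

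At a lower threshold of 0.1 FPKM, 25 members were expressed, among them 5 of 5 anterior, 14 of 15 middle and 6 of 12 posterior genes. Among the anterior members were Hoxb3 (0.693 ± 0.255 FPKM), Hoxa3 (0.552 ± 0.148), Hoxa2 (0.504 ± 0.251) and Hoxb2 (0.170 ± 0.0895). Of the most posterior genes, which pattern the distal limb, the genitalia and the tail end of the trunk, Hoxa11, Hoxa13, Hoxb13 and Hoxd10 had at most 3 counts in any tumor. Hoxc13 reached 4 counts in 1 tumor and Hoxc11 had 0 to 8 counts. In HoxD the level fell from Hoxd8 to Hoxd9 (0.609 ± 0.334 FPKM), while Hoxd4 was at 0.0670 ± 0.0569 FPKM (0 to 12 counts). A count was present in every tumor for 24 of 32 members.

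The gene models of several members overlap, and the strand setting of the counting is not given in the sources used here. The model of Hoxa3 spans Hoxa4, Hoxa5 and Hoxa6 together with antisense transcripts, and that of Hoxc5 spans Hoxc6, Hoxc8 and Hoxc9 and overlaps part of Hoxc10. Hoxb5 and Hoxb6 overlap the antisense transcript Hoxb5os. The values of these members may therefore include reads of the overlapping gene or lack reads shared with it. Between the first and the last member of each cluster, the table held 10 further genes in HoxA, 10 in HoxB, 1 in HoxC and 2 in HoxD. The highest by mean FPKM were the noncoding RNAs Hoxb5os (3.66 FPKM, 16 to 75 counts), Gm15050 in HoxA (1.27 FPKM, 7 to 18 counts) and Gm11536 in HoxB (1.16 FPKM, 3 to 18 counts).

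The clusters also hold microRNA genes whose mature products are known to target Hox transcripts. Mature microRNAs have no poly-A tail, so these poly-A selected libraries did not measure them, and their hairpin genes had 0 to 4 counts (Mir10a) and 0 to 1 count (Mir196a-1). The sequences are shown, from RefSeq (GRCm39), because 1 expressed member carries a nearly complete match to 1 of them. Capitals mark the seed, bases 2 to 8.
miR-196a-5p: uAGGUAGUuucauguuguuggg
miR-196b-5p: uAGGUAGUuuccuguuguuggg
miR-10a-5p: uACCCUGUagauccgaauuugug
miR-10b-5p: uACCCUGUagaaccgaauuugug
Mir196a-1 lies in HoxB (chr11:96155990-96156091, plus strand), Mir196a-2 in HoxC (chr15:102881785-102881869, plus strand), Mir196b in HoxA (chr6:52207061-52207145, minus strand), Mir10a in HoxB (chr11:96207991-96208100, plus strand) and Mir10b in HoxD (chr2:74556414-74556481, plus strand). The miR-196 forms share 1 seed and the miR-10 forms share another. In its UTR, Hoxb8 holds the site shown next (GRCm39 chr11:96175714-96175735, plus strand), in which capitals mark the bases opposite the seed.
Hoxb8 site: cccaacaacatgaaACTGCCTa
With miR-196a-5p this site forms 21 Watson-Crick pairs and 1 wobble pair over 22 bases, and with miR-196b-5p 20 and 1. Of the 7 seed bases, 6 form Watson-Crick pairs at this site and 1 forms the wobble pair. The best site of a member had a median of 13 Watson-Crick pairs with miR-196a-5p over the 32 members. An exact seed match for miR-196 anywhere in the transcript was found in 10 of 32 members and for miR-10 in 6 of 32. Hoxb8 transcripts were present in all 8 tumors, at 2.15 to 4.69 FPKM.

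The comparison of hosts asks whether removing C3 from the host changes Hox expression in the tumor. No Hox gene differed between WT and C3-/- tumors at an adjusted p below 0.05. Of the 32 members, 23 passed edgeR's filterByExpr and were tested by its quasi-likelihood test over 16610 genes, with Benjamini-Hochberg adjustment. At that level 0 of 23 members were called, against 0 of all genes tested (0%). DESeq2 called 0 of the 26 members to which it gave an adjusted p, against 16 of 20024 genes (0.0799%). At an unadjusted p below 0.05, edgeR had 1 of 23 members (Hoxb2), against 848 of 16610 genes (5.11%). The tumors of the genotypes did not overlap for 1 of 23 members, again Hoxb2, against 619 of 16610 genes (3.73%). The share of members was near the share of all genes in each case. In C3-/- tumors the fitted value was higher for 10 members and lower for 13, with a median log2 fold change (C3-/- over WT) of -0.02. By position, 6 of 6 tested posterior members, 3 of 13 middle members and 1 of 4 anterior members had a higher fitted value in C3-/- tumors, against 8304 of 16610 genes tested, and none of these passed the test at an adjusted p below 0.05. With 1 tumor left out, the log2 fold change ran from -0.082 to 0.65 for Hoxc9 and from 0.028 to 0.79 for Hoxd9. The 6 of 6 thus did not hold in each such fit. Of the posterior members, 5 of 6 were lowest in the 3 tumors with little skeletal muscle RNA, of which 2 were WT and 1 was C3-/-, and the values with muscle level as a covariate are given with the muscle markers.

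**Figure D2:**
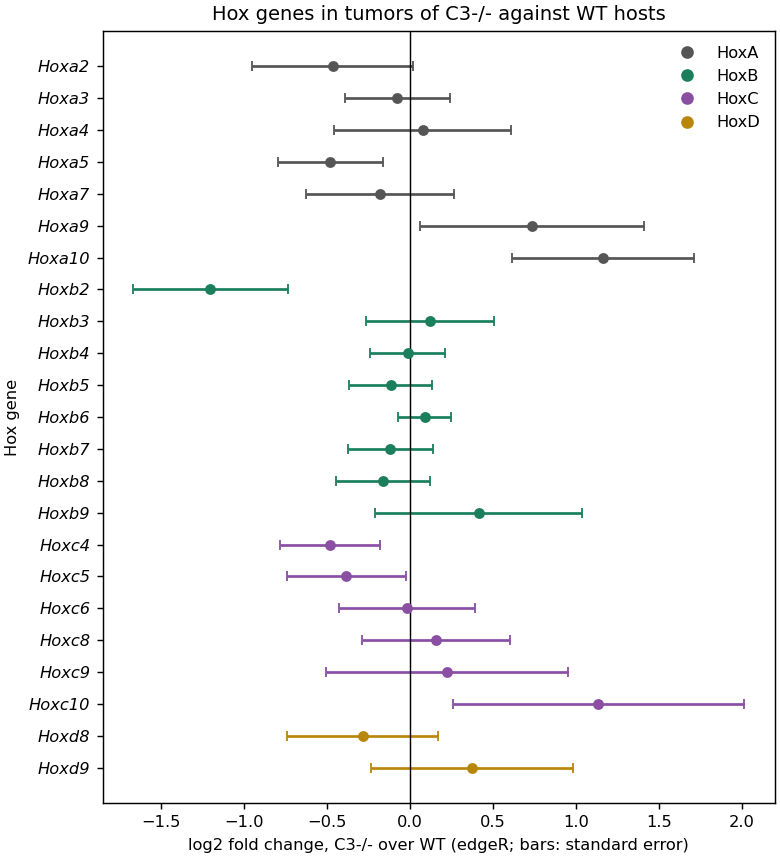
log2 fold change of the 23 tested Hox members, C3-/- over WT, from edgeR's fit of 4 against 4 tumors; bars show the standard error and colors the cluster. Values run from -1.20 (Hoxb2) to 1.17 (Hoxa10), and 0 of the 23 members had an adjusted p below 0.05.

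Hoxb2, which acts in the hindbrain and the neural crest of the embryo, was the member with the smallest p in edgeR. In CPM (counts scaled by library size after TMM normalization), Hoxb2 was at 0.933, 1.05, 0.678 and 0.681 in WT replicates 1 to 4 and at 0.187, 0.280, 0.315 and 0.656 in C3-/- replicates 1 to 4. All 4 WT tumors lay above all 4 C3-/- tumors, and C3-/- replicate 4 was nearly level with the lowest WT tumor. Its log2 fold change in edgeR was -1.20, with an SE of 0.46, an unadjusted p of 0.0267 and an adjusted p of 0.971. An exact two-sided permutation test gave p = 0.0286, the smallest that 4 against 4 tumors allow. These values rest on 4 to 16 counts per tumor, and Hoxb2 overlaps the antisense transcript Hoxb3os. The unadjusted p of Hoxb2 stayed below 0.05 when 1 of WT replicates 3 and 4 and C3-/- replicate 4 was left out, and was above it when any 1 of the other 5 tumors was. In such fits Hoxa5 had an unadjusted p below 0.05 without WT replicate 1, and so had Hoxa10 and Hoxc10 without C3-/- replicate 2.

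Hoxb6, Hoxb4, Hoxb5 and Hoxb7 were the 4 tested members with the smallest SD of log2(CPM + 0.1) over the 8 tumors (0.19 to 0.35). Hoxb6 was at 22.4, 17.4, 14.2 and 17.6 CPM in WT replicates 1 to 4 and at 18.6, 19.4, 18.3 and 19.9 CPM in C3-/- replicates 1 to 4. The C3-/- tumors all lay within the WT range, and the log2 fold change was 0.09 (SE 0.16, edgeR adjusted p = 0.999). Hoxb7, a paralog of Hoxa7, had 10.3, 5.73, 11.8 and 7.87 CPM in WT tumors and 10.2, 8.35, 6.43 and 7.82 in C3-/- tumors, again with every C3-/- tumor inside the WT range (log2 fold change -0.12, SE 0.26). Hoxb5, whose gene is active in foregut mesenchyme of the embryo, was highest in WT replicate 1. Its values were 16.2, 8.44, 12 and 8.47 CPM in WT and 9.31, 12.7, 8.38 and 11.2 CPM in C3-/- tumors (log2 fold change -0.12, SE 0.25). Hoxb4, a gene known from blood stem cells, ranged from 5.27 to 9.39 CPM over the 8 tumors, and its genotypes overlapped.

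Hoxb8, named here after its values were seen, had 9.76, 8.36, 12.5 and 6.38 CPM in WT tumors and 12.2, 7.50, 7.56 and 5.74 CPM in C3-/- tumors. The genotypes overlapped over nearly their whole ranges (log2 fold change -0.16, SE 0.28). Its log2(CPM + 0.1) was compared with the log2 of the summed FPKM of 6 epithelial genes across the 8 tumors, a sum of which 4 keratins made up 86.6% to 93.7%. Pearson's r was 0.957 (exact permutation p = 0.000298, adjusted p = 0.0205 over 69 relations of members and marker lists) and Spearman's rho was 0.905 (exact permutation p = 0.00456, adjusted p = 0.246). Without WT replicate 3 and C3-/- replicate 4, the tumors farthest from the median of the log2 epithelial sum, r was 0.91, and without WT replicate 3 and C3-/- replicate 1, the farthest on the linear sum, it was 0.89. Taken singly, after these values were seen, Krt7, Krt8, Krt18 and Krt19 had r of 0.909 to 0.985 with Hoxb8, whereas Epcam had 0.614 (exact permutation p = 0.105, rho 0.643) and Cdh1 0.066 (exact permutation p = 0.87, rho 0.143). The tumors thus had a like order of Hoxb8 and the keratins, while Cdh1 did not have that order. The 69 relations were those of the 23 tested members with the epithelial, fibroblast and mesothelial lists. The adjustment does not cover the other marker lists. Of the 69 relations, that of Hoxb8 with the epithelial list alone passed by Pearson's r, and 0 passed by Spearman's rho. Among those that did not pass, the highest r were 0.916 for Hoxb8 with the mesothelial list (rho 0.857, adjusted permutation p = 0.0693), whose sum is mostly Krt19, 0.898 for Hoxd8 with the fibroblast list (rho 0.81, adjusted permutation p = 0.107) and 0.858 for Hoxa7 with the fibroblast list (rho 0.857, adjusted permutation p = 0.156). The r of the fibroblast relations fell to 0.693 for Hoxd8 and 0.459 for Hoxa7 without C3-/- replicates 2 and 4. For Hoxb8 and the epithelial sum, with the mean of each genotype taken out of both measures, which was added after the values were seen, r was 0.977 (exact permutation of tumors within genotype, p = 0.00694, n = 8).

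**Figure D3:**
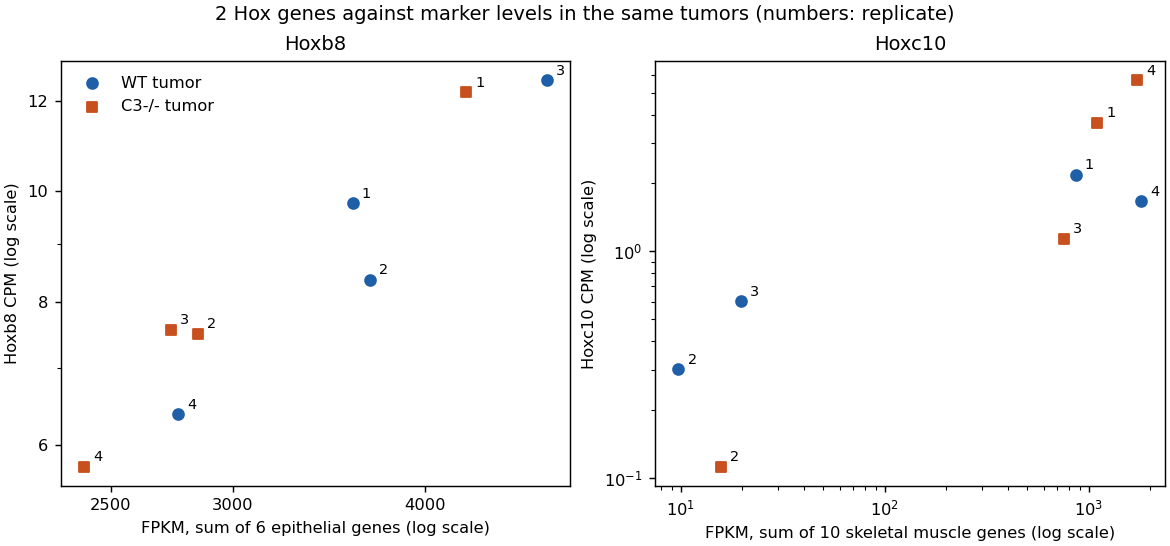
CPM of Hoxb8 against the summed FPKM of 6 epithelial genes (left), and CPM of Hoxc10 against the summed FPKM of 10 skeletal muscle genes (right), each point 1 tumor with its replicate number and all axes logarithmic. Hoxb8 is highest in WT replicate 3 (12.5 CPM), the tumor with the highest epithelial sum, and the 3 tumors with the lowest muscle sums have Hoxc10 at or below 0.603 CPM.

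Among the middle HoxA genes, Hoxa5, a gene needed for lung and foregut development, was at 3.86, 8.44, 9.04 and 5.70 CPM in WT tumors and at 3.98, 5.54, 3.47 and 6.34 CPM in C3-/- tumors. WT replicates 2 and 3 were the highest, and the other WT tumors lay within the C3-/- range (log2 fold change -0.48, SE 0.32, edgeR unadjusted p = 0.16). Hoxa4 was low in WT replicate 1 at 0.311 CPM, with 2.11, 1.51 and 1.62 in the other WT tumors and 0.842, 2.24, 0.946 and 1.80 in C3-/- tumors (log2 fold change 0.08, SE 0.54). Hoxa7 was at 2.11, 1.66, 1.21 and 2.60 CPM in WT and 1.64, 0.616, 1.58 and 2.90 CPM in C3-/- tumors (log2 fold change -0.18, SE 0.45). For both genes the genotypes overlapped.

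Hoxa9, a regulator of blood progenitors and of the limb, was at 1.99, 0.226, 0.377 and 1.87 CPM in WT tumors and at 1.87, 0.616, 1.89 and 3.28 CPM in C3-/- tumors. WT replicates 2 and 3 and C3-/- replicate 2 were low, and the other 5 tumors lay between 1.87 and 3.28. The log2 fold change was 0.73 (SE 0.67, edgeR unadjusted p = 0.301). Hoxa10, named after its values were seen, was at 1.18, 0.452, 1.13 and 1.28 CPM in WT tumors and at 2.57, 0.560, 1.95 and 4.10 CPM in C3-/- tumors. C3-/- replicates 1, 3 and 4 lay above all WT tumors and C3-/- replicate 2 lay among them. Its log2 fold change of 1.17 (SE 0.55) had an edgeR unadjusted p of 0.0588, an adjusted p of 0.971 and an exact two-sided permutation p of 0.2. In DESeq2 Hoxa10 had the smallest p of the members (unadjusted p = 0.0347, adjusted p = 0.87, against an unadjusted p of 0.0444 for Hoxb2), and in edgeR its unadjusted p was 0.0415 without a filter and 0.026 in the fit blocked on replicate number.

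In HoxC, Hoxc6, a middle gene of the thoracic region, was at 4.04, 3.09, 1.88 and 5.23 CPM in WT tumors and at 3.56, 1.68, 3.15 and 5.80 CPM in C3-/- tumors, with nearly the same mean (log2 fold change -0.02, SE 0.41). Hoxc8 was at 4.10, 2.56, 1.05 and 3.62 CPM in WT and at 4.59, 1.46, 3.66 and 3.01 CPM in C3-/- tumors (log2 fold change 0.16, SE 0.45). For both genes the lowest tumors were WT replicate 3 and C3-/- replicate 2. Hoxc9 was at 3.36, 0.678, 0.527 and 3.57 CPM in WT and at 3.60, 0.392, 1.89 and 3.77 CPM in C3-/- tumors (log2 fold change 0.22, SE 0.73). Its 3 lowest tumors were those of Hoxa9, and the remaining 5 lay at 1.89 CPM or above. Hoxc10, a posterior gene of the lumbar region and hindlimb, was at 2.18, 0.301, 0.603 and 1.66 CPM in WT and at 3.70, 0.112, 1.13 and 5.69 CPM in C3-/- tumors. It ranged from 2 to 104 counts. The log2 fold change of Hoxc10 was 1.14 (SE 0.88, edgeR unadjusted p = 0.224), with a range of 0.46 (without C3-/- replicate 4) to 1.57 (without WT replicate 1) when 1 tumor was left out and a value of 0.48 in limma-voom, and C3-/- tumors were both the highest and the lowest of the 8.

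In HoxD, Hoxd8 was at 4.35, 3.92, 2.86 and 7.15 CPM in WT tumors and at 5.38, 1.29, 2.71 and 5.69 CPM in C3-/- tumors (log2 fold change -0.28, SE 0.46). Hoxd9 was at 1.37, 1.05, 0.151 and 1.96 CPM in WT and at 2.11, 0.616, 1.13 and 2.13 CPM in C3-/- tumors (log2 fold change 0.37, SE 0.61). Both genes were highest in WT replicate 4 and C3-/- replicates 1 and 4. Hoxd4 did not pass the filter. In the fit without a filter its log2 fold change was 0.82 (SE 0.94), on CPM of 0.124, 0.226, 0 and 0.213 in WT and 0.562, 0.0560, 0.252 and 0.164 in C3-/- tumors.

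The posterior members varied most between tumors. The SD of log2(CPM + 0.1) over the 8 tumors had a median of 0.65 over the 23 tested members and of 0.31 over all genes tested. Since members were of low abundance, the 7751 tested genes in the same range of mean CPM (0.598 to 18.5) serve as a closer background, with a median of 0.45, and 15 of 23 members lay above it. By position the median SD was 1.14 for posterior, 0.45 for middle and 0.60 for anterior members. By cluster it was 0.38 for HoxB, 0.65 for HoxA, 0.67 for HoxC and 0.91 for HoxD. Hoxb6 had the lowest SD (0.19), and Hoxc10 (1.62), Hoxc9 (1.28) and Hoxa9 (1.21) had the highest. C3-/- replicate 4 was the highest tumor for 8 of 23 members and C3-/- replicate 2 the lowest for 6 of 23.

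Several of these members were lowest in the tumors with the least skeletal muscle RNA. The summed FPKM of 10 skeletal muscle markers was 863, 9.73, 19.8 and 1809.8 in WT replicates 1 to 4 and 1096, 15.7, 755 and 1723 in C3-/- replicates 1 to 4. The tumors thus fell into 3 with hardly any muscle RNA (WT replicates 2 and 3 and C3-/- replicate 2) and 5 with much, so no correlation over all tumors is given. The 3 lowest tumors of Hoxc10 were the same 3. They were also the 3 lowest for Hoxa9, Hoxa10, Hoxc6, Hoxc8, Hoxc9 and Hoxd9, which makes 7 of 23 tested members with Hoxc10 itself, against 418 of 16610 genes (2.52%). These 7 include 5 of 6 posterior members, 2 of 13 middle members and 0 of 8 HoxB members. Among the marker lists, 10 of 10 skeletal muscle genes had this order, as did Dpt and Pi16 of 9 fibroblast genes and Des of 5 smooth muscle genes, and 0 genes of the acinar, hepatocyte, mesothelial, endothelial, leukocyte and epithelial lists. The part of skeletal muscle RNA in the Hox values was not tested beyond a fit with the muscle level as a covariate, which was added after the data were seen. In that fit 0 members had an adjusted p below 0.05, Hoxb2 alone had an unadjusted p below 0.05 (0.0364), the log2 fold change of Hoxc10 went from 1.14 to 0.35, that of Hoxa10 from 1.17 to 0.74 and that of Hoxc9 from 0.22 to -0.21.

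**Figure D4:**
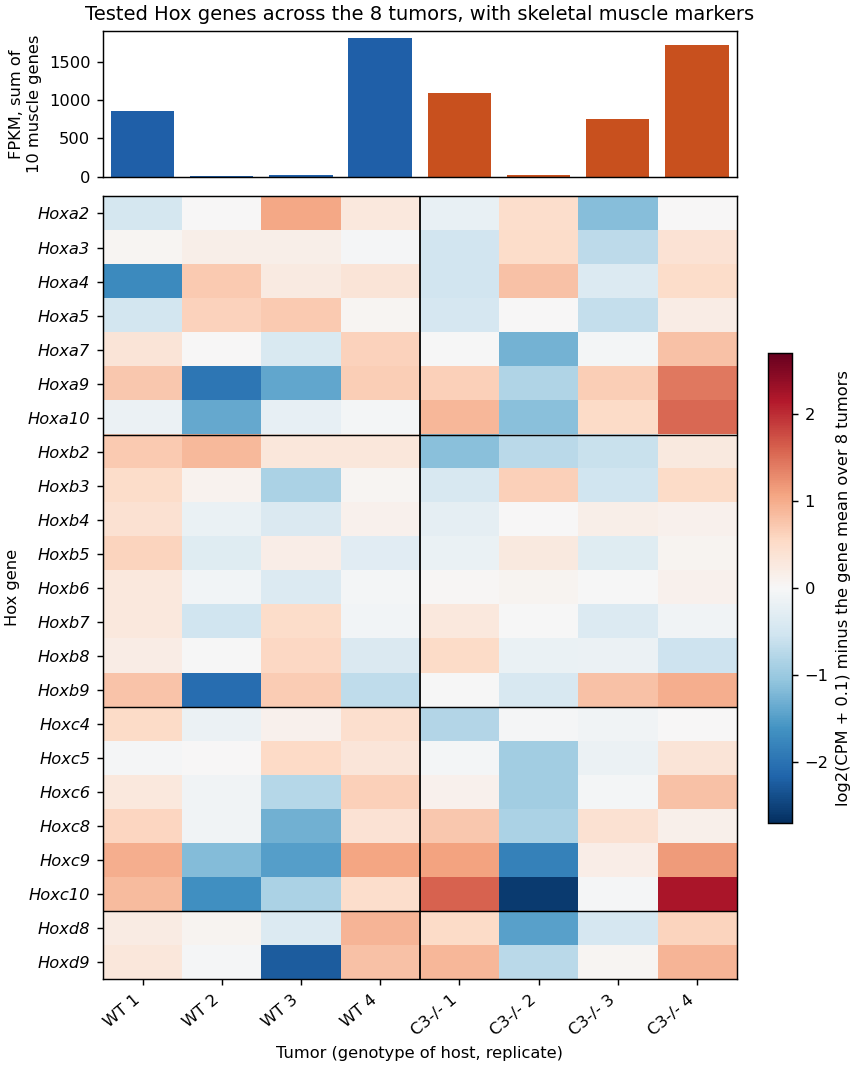
log2(CPM + 0.1) of the 23 tested Hox members minus each member's mean over the 8 tumors (colors; members in rows by cluster, tumors in columns, a vertical line between genotypes), under bars of the summed FPKM of 10 skeletal muscle genes. Hoxa9, Hoxc9 and Hoxc10 are blue in WT replicates 2 and 3 and C3-/- replicate 2, where the muscle sums are 9.73, 19.8 and 15.7 FPKM, while Hoxb4 to Hoxb6 stay near their means.

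The sequences before the start sites differed widely in CpG content between members. Windows of 250 bases before the RefSeq start (GRCm39) were given for 16 members (17 windows). Those of Hoxa9, Hoxd9 and Hoxa5 are shown, with CpG dinucleotides in capitals, because they span low, median and high CpG content. They lie at chr6:52204351-52204600 (minus strand, Hoxa9), chr2:74527857-74528106 (plus strand, Hoxd9) and chr6:52181568-52181817 (minus strand, Hoxa5).
Hoxa9 promoter: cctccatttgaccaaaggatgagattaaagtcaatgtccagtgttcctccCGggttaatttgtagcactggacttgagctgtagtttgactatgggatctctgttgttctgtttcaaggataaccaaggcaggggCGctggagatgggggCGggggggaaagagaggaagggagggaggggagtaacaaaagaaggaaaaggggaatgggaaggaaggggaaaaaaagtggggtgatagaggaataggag
Hoxd9 promoter: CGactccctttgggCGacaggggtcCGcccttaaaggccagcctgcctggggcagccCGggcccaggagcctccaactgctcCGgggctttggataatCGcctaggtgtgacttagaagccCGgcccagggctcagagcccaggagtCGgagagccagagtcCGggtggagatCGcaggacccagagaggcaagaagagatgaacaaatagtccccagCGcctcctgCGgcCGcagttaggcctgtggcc
Hoxa5 promoter: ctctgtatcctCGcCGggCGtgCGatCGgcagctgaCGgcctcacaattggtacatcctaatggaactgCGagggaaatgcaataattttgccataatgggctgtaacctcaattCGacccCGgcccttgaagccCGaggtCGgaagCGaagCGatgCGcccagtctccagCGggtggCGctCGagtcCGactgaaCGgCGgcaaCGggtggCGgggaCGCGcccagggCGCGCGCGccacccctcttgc
The Hoxa9 window holds 3 CpG, that of Hoxd9 13 and that of Hoxa5 28. Of the members that were lowest in the 3 tumors with little muscle RNA, Hoxa9, Hoxa10 and Hoxd9 had a window. Hoxc6, Hoxc8, Hoxc9 and Hoxc10, which were also among them, had none. The 2 windows of Hoxa10 hold 20 and 7 CpG, and those of Hoxa7, Hoxd8 and Hoxa2, which were not among them, hold 7, 6 and 6. A relation of CpG content to the levels in these tumors was not tested. Over the 17 windows the median was 13 CpG and a GC content of 58%, against 6 CpG and 52.4% over 32851 windows of all genes. The letters TATAAA, searched on both strands, were in 3 of 17 windows (17.6%) and in 12.4% of all windows, and TGATNNAT, a composite PBX-HOX motif, in 2 of 17 (11.8%) and in 7.68% of all windows. None of the 3 windows shown holds either motif. A match of letters is a description of the sequence and not a binding site.

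Partners and regulators of the Hox genes were read from the same edgeR fit. Of the TALE cofactors, the PBX, MEIS and PKNOX homeodomain proteins that bind DNA together with Hox proteins, 9 of 9 were tested and 0 had an adjusted or an unadjusted p below 0.05 (7 higher and 2 lower fitted values in C3-/- tumors). The smallest p was that of Meis3, with 8.02, 9.42, 8.29 and 8.17 CPM in WT and 13.4, 12.9, 8.83 and 9.35 CPM in C3-/- tumors (log2 fold change 0.39, SE 0.20, unadjusted p = 0.072). Pbx4 came next (log2 fold change -0.51, SE 0.38, unadjusted p = 0.211). Of the Polycomb and trithorax genes, which keep Hox clusters silent or active, 32 of 32 were tested and 0 had an adjusted or unadjusted p below 0.05, with 21 higher and 11 lower fitted values. Ezh2, the Polycomb methyltransferase, had a log2 fold change of -0.19 (SE 0.10, unadjusted p = 0.0989) and Cbx2, a Polycomb reader, of 0.26 (SE 0.15, unadjusted p = 0.111). For these 2 of 32 genes the genotypes did not overlap, against 619 of 16610 genes tested (3.73%).

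Retinoic acid and the Cdx factors are known inducers of Hox genes in the embryo. Of the 19 genes of this list 14 were tested, 0 passed after adjustment and 2 had an unadjusted p below 0.05, both lower in C3-/- tumors, against 5.11% of all genes tested. Of the marker lists of other cell types, 0 genes passed after adjustment. The fitted value was lower in C3-/- tumors for 6 of 6 epithelial, 5 of 5 mesothelial, 7 of 9 fibroblast, 5 of 6 endothelial, 5 of 6 hepatocyte, 3 of 5 smooth muscle and 2 of 3 nerve genes, against 8306 of 16610 genes tested. It was higher for 9 of 10 acinar, 8 of 10 skeletal muscle and 3 of 5 leukocyte genes, against 8304 of 16610. An unadjusted p below 0.05 was found for the mesothelial genes Upk3b and Lrrn4 and the hepatocyte genes Ahsg, Fgb and Alb, all with lower fitted values in C3-/- tumors, and for the leukocyte genes Csf3r and Ptprc, with higher, and Itgam, with lower fitted values. All 3 hepatocyte genes were highest in WT replicate 4. Their part in the retinoic acid values was not tested. Aldh1a3, which makes retinoic acid, was at 386, 364, 490.4 and 351 CPM in WT and at 206, 340.4, 245 and 214 CPM in C3-/- tumors. The genotypes did not overlap, and edgeR's log2 fold change of -0.66 (SE 0.19) had an unadjusted p of 0.00504 and an adjusted p of 0.933. Aldh1a1, an enzyme of the same step, was at 20.2, 30.7, 20.8 and 25.1 CPM in WT and at 17.6, 17.4, 12.5 and 19.3 CPM in C3-/- tumors (log2 fold change -0.53, SE 0.19, unadjusted p = 0.0182, adjusted p = 0.96), also without overlap. In this list 2 of 14 tested genes had no overlap, against 619 of 16610 genes tested (3.73%). Of the homeobox genes linked to the clusters or the gut (Evx1, Evx2, Pdx1, Gsx1 and Gsx2), Pdx1 alone was tested. It was at 29.3 to 33.5 CPM in WT and at 34.2 to 42.1 CPM in C3-/- tumors (log2 fold change 0.34, SE 0.13, unadjusted p = 0.022, adjusted p = 0.965).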

How the data were processed

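RNA of 8 KPC tumors (4 WT and 4 C3-/- hosts) was poly-A selected and sequenced in read pairs. The paper names STAR and HTSeq and the submitters' processing notes name HISAT2 2.0.5, both with mm39 and DESeq2 1.20.0. The strand setting of the counting is not given in the sources used here. The authors deposited 1 table with raw counts per gene (the basis of each test), counts divided by a size factor of each tumor (a normalized signal, not used in tests) and FPKM values per gene, which were used for levels between genes. Each deposited FPKM value equals the count divided by gene length and by 1 constant of its tumor. The authors' group means and the results of their own test (log2 fold changes with raw and adjusted p-values) were not used. Each gene in the table had at least 2 counts over the 8 tumors.

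Counts were fitted with edgeR 4.0.16 in R 4.3.3 (filterByExpr with a minimum count of 10, TMM, glmQLFit and glmQLFTest without covariates, Benjamini-Hochberg over all genes tested). Single genes were also tested by exact permutation of log2(CPM + 0.1). Alternatives were DESeq2 1.42.0, its size factors in edgeR, limma-voom (limma 3.58.1), other filters, a replicate block, and each tumor left out in turn. The steps were tested on simulated data. Intervals and p-values measure the spread between tumors, which the labels give as numbered replicates of each genotype. Each was taken as the tumor of 1 mouse, which the labels do not state.

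The members and the lists were chosen with earlier results of these data known. Given in full were the 3 members of each cluster with the highest mean FPKM, members with an unadjusted p below 0.05 or without overlap, and the 3 with the largest SD of log2 CPM. Of each pathway list the 2 genes with the smallest p were named, and of other transcripts within the clusters the 3 with the highest FPKM. Tumors with the same replicate number deviated together in 2 of 4 pairs (residual correlations -0.03, 0.49, -0.36 and 0.59), and not in each, so the numbers were not taken to pair tumors. Sequences came from GRCm39, GENCODE vM39 transcripts and RefSeq tables. A few items are not reported here.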

Additional observations from a re-analysis of the deposited data

Results flagged for a closer look

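Within each genotype, the highest and the lowest tumor were set against the other 3 by Dixon's criterion for each tested member, each cluster and position share and the Hox share of all counts, in 62 groups of 4 tumors, of which chance alone would mark about 1 in 20 (3.1 groups). A far value was found in 2 groups. Hoxa10 in WT replicate 2 was at 0.452 CPM, below the 1.13 to 1.28 CPM of the other WT tumors, and this tumor also had the lowest skeletal muscle sum of the 8 (9.73 FPKM), a relation that was not tested. Hoxc4 in C3-/- replicate 1 was at 1.12 CPM, below the 1.89 to 2.02 CPM of the other C3-/- tumors.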

How the results depend on the processing

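Under each alternative 0 Hox genes had an adjusted p below 0.05, and the median log2 fold change of the tested members stayed between -0.11 and 0.08. The number with an unadjusted p below 0.05, 1 in the fit reported, was 2 with DESeq2, 2 without a filter, 0 where each tumor needed 10 counts or more, and 0 to 2 with a tumor left out. The value was 0 when WT replicate 2 or 1 of C3-/- replicates 1 and 3 was left out, and the 2 were Hoxa10 and Hoxc10, without C3-/- replicate 2. With a replicate block, in a design whose numbers were not found to pair the tumors, it was 2 (Hoxa10 and Hoxb2). Members without overlap numbered 0 under that stricter filter and 1 to 2 with a tumor left out. The stricter filter kept 14 members and took out Hoxb2 and Hoxa10. Its values of 0 therefore say nothing about these genes. Over all genes, DESeq2 called 16, and leaving out a tumor gave 0 to 4, the 4 without C3-/- replicate 1. Members expressed numbered 25 at 0.1 FPKM, 23 by filterByExpr, and 8 to 11 with a tumor left out. Of 24 genes named with a fold change, 14 kept their direction in each alternative run for them, among them the 7 pathway genes and Hoxd4, for which only 1 alternative gave a value. With a tumor left out, log2 fold changes crossed 0 for Hoxa4 (-0.26 to 0.34), Hoxa7 (-0.58 to 0.094), Hoxb5 (-0.23 to 0.11), Hoxb6 (-0.0064 to 0.21), Hoxb7 (-0.28 to 0.046), Hoxb8 (-0.41 to 0.020), Hoxc6 (-0.36 to 0.23), Hoxc8 (-0.11 to 0.39), Hoxc9 (-0.082 to 0.65) and Hoxd8 (-0.55 to 0.023), and with the muscle level as a covariate for Hoxc8 (-0.077) and Hoxc9 (-0.21). The cause was not tested.

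Depth limits the posterior and anterior genes most: 9 of the 23 tested members had fewer than 10 counts in some tumor and 9 members were not tested. Hoxb2 and Hoxc10 rest on as few as 4 and 2 counts in a tumor.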
